A study of Homo sapiens with 59 samples.

Results

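Broad H3K4me3 domains are stretches of several kilobases over which nucleosomes carry trimethylated lysine 4 of histone H3. In NCI-H661, a long-established line from a large cell carcinoma of the human lung, 854 such domains were chosen by the deposited H3K4me3 peaks: runs of bases lying under a peak in all 6 H2O libraries of the hairpin lines, at least 5 kb long and on autosomes. They made up 3.00% of the 28455 runs shared by those libraries and held 11.9% of the shared bases. A gene was assigned to a domain when a transcription start site (TSS) of a protein-coding gene in GENCODE 44 lay inside it. This was the case for 664 domains (77.8%), which held TSSs of 782 genes, while 190 domains held none.

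Chromatin immunoprecipitation with mouse chromatin as a reference (ChIP-Rx-seq) was performed in parental cells and in lines shDPPA2, shDPPA4 and shDPPA2+4, which carry doxycycline-inducible hairpins against DPPA2, DPPA4 or both. These lines were kept for 7 days with doxycycline at 2 µg/ml (DOX) or with water alone (H2O). H3K4me3 was profiled in replicates 1 and 2, and both H2AK119ub and H3K27me3 in replicates 1 and 3. They were sorted populations, not clones, and a control line for doxycycline itself was not analysed here. Parental cells were exposed for 1 day to DMSO or to A-485 at 10 µM, which blocks the histone acetyltransferases CBP and p300. Replicates 2 and 4 were profiled for H3K27ac, replicates 3 and 4 for H2AK119ub, replicates 2 to 4 for H3K27me3, and DMSO replicate 3 alone for SUZ12.

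H3K4me3 is deposited at active and poised promoters, usually as a narrow peak around the TSS, and unusually wide domains are known from genes of cell identity and of growth control. H2AK119ub is placed by Polycomb repressive complex 1 (PRC1) and H3K27me3 by PRC2, of which SUZ12 is a core subunit. H3K27ac, placed by p300 and CBP, marks active promoters and enhancers. DPPA2 and DPPA4 are normally found in early embryos and germ cells, where they bind CG-rich promoters.

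The deposited lists held 51 libraries. Reads in peaks ranged from 8428795 to 19452145 for H3K4me3, from 566116 to 5379670 for H2AK119ub, from 590598 to 12610644 for H3K27me3 and from 780024 to 6502796 for H3K27ac, and SUZ12 had 535325. Several libraries stood apart. The 3 replicate 3 H2AK119ub libraries with DOX held 92642 to 107509 peaks, against 52030 to 69371 in the other 9 hairpin libraries of this mark, and 0.737 to 1.37% of their peak reads lay in broad domains, against 3.17 to 6.24%. The H2AK119ub library of DMSO replicate 3 shared nearly as much covered sequence with H3K27me3 as with its own target (median Jaccard index, the shared bases over all bases covered by either list, 0.133 and 0.137). The H3K27ac lists labelled DMSO replicate 4 and A-485 replicate 4 carried, at peaks with shared borders, the input counts of the other treatment (100% equal wherever compared), so the input of each goes against its label. The H3K27me3 library of DMSO replicate 4 was the shallowest of its target and had an index of 0.0813 with H3K27me3 and 0.0751 with H2AK119ub, where DMSO replicates 2 and 3 had 0.476 and 0.446 with H3K27me3. Results that rest on these libraries are given by replicate.

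Markers of the line were mixed. H3K4me3 covered the whole 3 kb around the TSSs of VIM, DPPA2 and DPPA4 in every H2O library and 80.0 to 100% of that of EPCAM. Coverage was 23.3 to 46.7% at KRT19, 43.3 to 70% at CDH1, 63.3 to 70% at KRT18 and 56.7 to 90% at KRT8, the other epithelial markers, and 56.7 to 70% at FN1 and 63.3 to 86.7% at CDH2, the other mesenchymal ones. It was absent from the blood markers PTPRC, CD3E and CD14 and from the surfactant gene SFTPB, but covered 36.7 to 56.7% of the window of SFTPC. The alveolar lineage factor NKX2-1 lay in a broad domain. DPPA4 lay in a domain of 5.4 kb, and DPPA2 in a run of 3700 bp that missed the length limit. Both stayed fully covered by H3K4me3 in every DOX library, which does not check whether the hairpins lowered their RNA or protein.

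Promoter sequences are shown for 4 domains because they differ in the density of CG dinucleotides, a feature that H2AK119ub followed across domains below. Each is the 250 bases before the canonical TSS, on the strand of the gene, read from hg38, lies inside its domain and overlaps no annotated exon. Capitals mark CG, which reads the same on both strands.
NR2F1 (longest domain, chr5:93582972-93583221, plus strand): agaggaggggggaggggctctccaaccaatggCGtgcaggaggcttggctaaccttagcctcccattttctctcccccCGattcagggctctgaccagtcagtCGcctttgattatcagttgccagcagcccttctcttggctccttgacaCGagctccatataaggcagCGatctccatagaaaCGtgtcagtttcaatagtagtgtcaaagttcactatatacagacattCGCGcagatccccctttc
GDNF (domain with H3K27me3, chr5:37840042-37840291, minus strand): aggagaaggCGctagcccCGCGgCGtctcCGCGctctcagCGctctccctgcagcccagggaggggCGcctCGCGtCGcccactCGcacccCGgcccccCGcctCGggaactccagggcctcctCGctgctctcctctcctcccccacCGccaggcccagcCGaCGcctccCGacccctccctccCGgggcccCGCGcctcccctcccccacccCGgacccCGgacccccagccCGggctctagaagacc
NOL4L (H2AK119ub over the whole domain, no H3K27me3, chr20:32585334-32585583, minus strand): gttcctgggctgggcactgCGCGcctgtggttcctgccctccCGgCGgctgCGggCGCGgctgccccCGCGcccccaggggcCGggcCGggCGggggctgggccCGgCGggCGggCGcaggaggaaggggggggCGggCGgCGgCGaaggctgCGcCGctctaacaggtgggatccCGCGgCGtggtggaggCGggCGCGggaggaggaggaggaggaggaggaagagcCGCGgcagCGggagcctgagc
NAV3 (no H2AK119ub in H2O, chr12:77830644-77830893, plus strand): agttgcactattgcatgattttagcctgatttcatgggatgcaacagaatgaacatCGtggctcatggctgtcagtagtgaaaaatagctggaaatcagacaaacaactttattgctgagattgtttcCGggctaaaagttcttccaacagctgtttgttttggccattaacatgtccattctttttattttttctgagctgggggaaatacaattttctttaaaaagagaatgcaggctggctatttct
These hold 8, 26, 31 and 2 CG. The median over 18761 canonical TSSs of protein-coding genes was 18, and fewer CG than in these promoters were found at 25.7%, 71.3%, 84.2% and 7.44% of them.

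Most domains were only somewhat longer than the limit. Their median length was 6100 bp (quartiles 5400 and 7300 bp), against 1500 bp for all shared runs, and 160 domains reached 8 kb, 68 reached 10 kb and 6 reached 20 kb. At the limit, 63 domains measured exactly 5000 bp and 64 runs fell short at 4900 bp. HES4 with ISG15 and CASP9 with DNAJC16 lay just inside, with 96.3% and 15.0% of their bases under H2AK119ub peaks on average, whereas TXNDC12 with BTF3L4 and SERBP1 lay just outside, with 19.4% and 23.1%. The same length rule applied to the 6 DOX libraries gave 954 domains. Of the H2O domains 90.4% overlapped one of these, and 80.7% of the DOX domains overlapped an H2O domain.

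The longest domains centered on regulators of development. NR2F1, an orphan nuclear receptor of neural development, had the longest (36.1 kb, chr5:93577301-93613400), and among those next in length were POU3F2, a neural POU factor (22.7 kb), NKX2-1 (20.8 kb), HOXC8, HOXC6 and HOXC4 in one domain (20.7 kb), MEIS2, a homeodomain partner of HOX proteins (18.9 kb), ZEB2, a zinc finger factor of epithelial-mesenchymal transition (18.4 kb), HOXC9 (18.4 kb) and NR2F2 (18.2 kb). COL11A1, a fibrillar collagen (17 kb), MEF2C, a MADS-box factor (16.1 kb), and GASK1B (15.5 kb) were also among the 12 longest with a TSS. Of 18430 autosomal protein-coding genes, 4.24% had a TSS in a broad domain. The share was 42 of 200 developmental transcription factors (21.0%), 20 of 39 immediate early and stress genes (51.3%) such as DUSP6, ZFP36L2, ZFP36 and DDIT3, 12 of 28 TGF-beta, BMP and Hippo targets (42.9%) such as CCN1, TGIF1, SMAD6 and SKIL, 11 of 45 drivers of non-small cell lung cancer (24.4%) such as CDKN1B, SOX2 and CDKN2A, and 14 of 66 chromatin regulators (21.2%) such as KDM6B, SETD1B and BRD2. It was 6 of 50 for the Wnt pathway (TCF7L2, FZD8, DKK1 and FZD2 the longest), 4 of 26 mesenchymal genes (ZEB2, COL3A1, VIM and PDGFRA), 4 of 28 germline and early embryo genes (SOX2, SALL4, LIN28B and DPPA4), 8 of 73 ribosomal protein genes (RPS18, RPS2, RPL13 and RPS16 the longest), 2 of 31 proteasome genes, 1 of 41 DNA replication genes (ORC6), 1 of 26 lung lineage genes (NKX2-1) and 0 of 20 blood and 0 of 26 silent tissue genes. These counts describe the chosen lists and were not tested.

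Domains extended mainly into the gene. Among the 519 with the canonical TSS of 1 gene, 403 (77.7%) reached farther downstream than upstream, with a median of 2157 bp upstream and 4044 bp downstream. The share was 82.2% for runs of 2 to 5 kb and 81.3% for runs of 1 to 2 kb, so it was not higher in the longer class. Chromosome 19 held 59.7 domains per 100 Mb and chromosome 9 held 16.6. The 190 domains without a protein-coding TSS lay a median of 72256 bp from the nearest one. The 5′ end of a lncRNA gene lay in 60 of them, 67 overlapped the body of a protein-coding gene, and 78 did neither. Their longest were at LINC00472 on chromosome 6 (21.4 kb), at MALAT1 and TALAM1 on chromosome 11 (14.0 kb) and at an unnamed lncRNA nearest to CDH10 on chromosome 5 (13 kb).

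Sequence composition set the domains apart from short runs. They held a median of 35.3 CG per kb, against 60.6 in the 3251 short runs, the shared runs of 1 to 2 kb with a protein-coding TSS, and 51.3 in runs of 2 to 5 kb. Domains with a TSS held 39.9 and those without held 10.9. These medians were not tested.

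H2AK119ub peaks covered a smaller share of bases in broad domains than in short runs in every H2O library. The share of bases under H2AK119ub peaks, averaged over domains, was 44.02% and 30.7% in shDPPA2 replicates 1 and 3, 48.5% and 28.8% in shDPPA4, and 49.2% and 28.2% in shDPPA2+4. Replicate 1 was high and replicate 3 low in each line. In bulk chromatin, fewer cells with a mark and less of it per cell cannot be told apart. The mean was 38.2% ± 10.1 (SD, n = 6 libraries) in broad domains and 55.3% ± 9.52 in short runs, a difference of -17.04 ± 5.92 percentage points that was negative in 6 of 6 libraries (exact two-sided sign-flip permutation test, p = 0.0312, the smallest 6 pairs can give). Counted only over the central 1 kb of each region it was -11.2 points (exact permutation p = 0.0625), so the call did not hold there, and against runs of 2 to 5 kb it was -9.22 points. The sets are unlike, since every short run holds a protein-coding TSS and 190 of the domains hold none. Domains with a TSS alone averaged 43.4%, closer to the 55.3% of short runs. The domains are also longer, with a median of 6100 bp against 1600 bp, and a share of bases does not count how many regions hold a peak. A peak was present in all 6 H2O libraries in 503 of 854 domains and 1848 of 3251 short runs. None was present in any of the 6 in 49 domains and 326 short runs.

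Within the domains, H2AK119ub ranged from none to complete. A peak was present in all 6 H2O libraries in 503 domains, at least 50% of bases were covered in all 6 in 172 and at least 90% in 39, while 49 had no peak in any. Domains with a TSS averaged 43.4% ± 10.4 and those without 20.1% ± 9.25 (SD, n = 6). Across the 854 domains the mean share followed CG per kb (Spearman rho 0.737) and GC content (0.813) but not length (0.0111). Taken within each of the 6 libraries, rho with CG per kb ranged from 0.597 to 0.721. Among the 611 H3K27me3-free domains with a TSS, quartiles of CG density had shares of 18.4% ± 8.81, 31.1% ± 12.1, 43.2% ± 12.2 and 66.5% ± 10.8 (SD, n = 6). In these 611, rho was 0.658 with CG per kb and 0.7815 with GC content. These correlations run over domains that share libraries, depth and base composition, and they are descriptions.

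**Figure D1:**
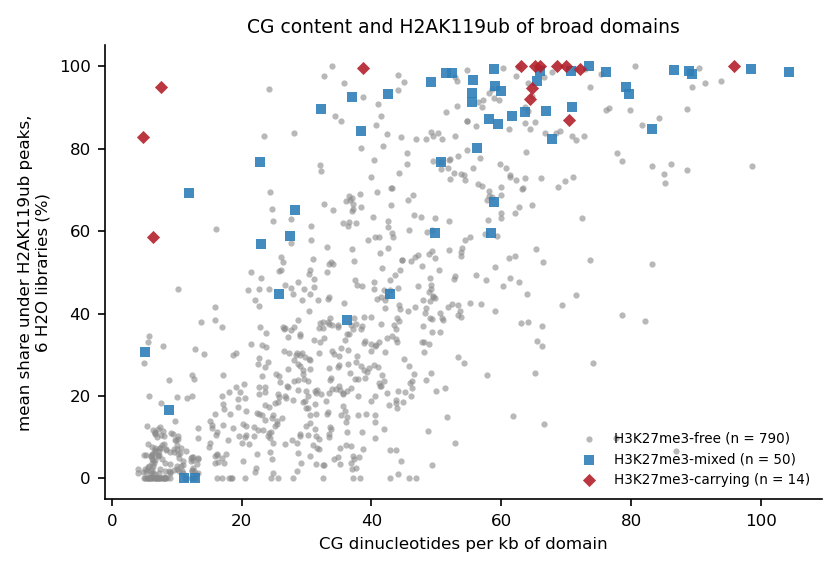
Mean share of bases under H2AK119ub peaks in the 6 H2O libraries (vertical axis, %) against CG dinucleotides per kb (horizontal axis), 1 point per broad domain, with 790 H3K27me3-free domains as gray circles, 50 mixed as blue squares and 14 H3K27me3-carrying as red diamonds. The share rises with CG density (rho 0.737), and 3 carrying domains sit at the far left.

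Single domains show the range. Over the NR2F1 domain the share in H2O was 82.0% and 53.2% in shDPPA2 replicates 1 and 3, 82.6% and 48.5% in shDPPA4, and 86.4% and 46.8% in shDPPA2+4. POU3F2 had a lowest, median and highest share of 51.5%, 64.8% and 85.0%, MEIS2 of 42.3%, 64.5% and 94.2%, and HOXC9 of 88.6%, 97.8% and 100%. The matching values were 20.3%, 28.3% and 41.8% for NR2F2, 0%, 7.94% and 21.2% for COL11A1 and 0%, 4.66% and 18.01% for MEF2C, so the longest domains were not uniformly marked. Among H3K27me3-free domains with a TSS, the highest shares were at NFKBIA, the inhibitor of NF-kB, and NOL4L (100% in all 6 libraries), FSCN1, an actin-bundling protein (98.3 to 100%), and ELFN1 (97.3 to 100%). NFKBIA lies in a stretch of chromosome 14 with high input, described below. ALDH1A1, a retinaldehyde dehydrogenase (9.9 kb), NAV3 (8.6 kb), PFDN1, a prefoldin subunit (7.9 kb), and HSPA5, the chaperone BiP of the endoplasmic reticulum (7.6 kb), were the longest of those with no H2AK119ub peak in any H2O library. The 26 domains of this kind without any H2AK119ub peak held a median of 16.6 CG per kb, and the 17 with at least 90% coverage in all 6 libraries held 62.6.

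The same measure was taken by gene group, with no test between groups. Median H2AK119ub shares in H2O were 76.1% for domains of developmental transcription factors, 66.8% for TGF-beta, BMP and Hippo targets, 62.3% for ribosomal protein genes, 60.2% for immediate early genes, 54.9% for chromatin regulators, 42.0% for lung cancer drivers, 35.8% for the Wnt pathway and 27.6% for germline genes, against 38.5% for all domains with a TSS. Among chromatin regulators, SETD1B, an H3K4 methyltransferase, was covered at 42.7 to 93.6% and BRD2, a reader of acetylated histones, at 13.9 to 54.7%. Among early genes JUN was covered at 56.4 to 92.7%, and among drivers SOX2 at 11.02 to 50% and CDKN2A at 0 to 36.1%. DPPA4 itself had 0 to 37.0%, with no peak in 3 of 6 libraries.

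The edges of the domains were not edges of H2AK119ub. Coverage was 9.66% in the 500 bp farthest outside (4.5 to 5 kb away), 21.0% ± 7.17 in the outermost 500 bp next to the edge, 27.2% ± 8.49 just inside and 44.2% ± 10.6 at 2 to 2.5 kb inside (SD, n = 6 H2O libraries). H3K27ac in DMSO went from 25.2% next to the edge to 48.5% just inside and 84.3% at 2 to 2.5 kb in replicate 2, and from 27.6% to 39.7% and 64.1% in replicate 4.

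**Figure D2:**
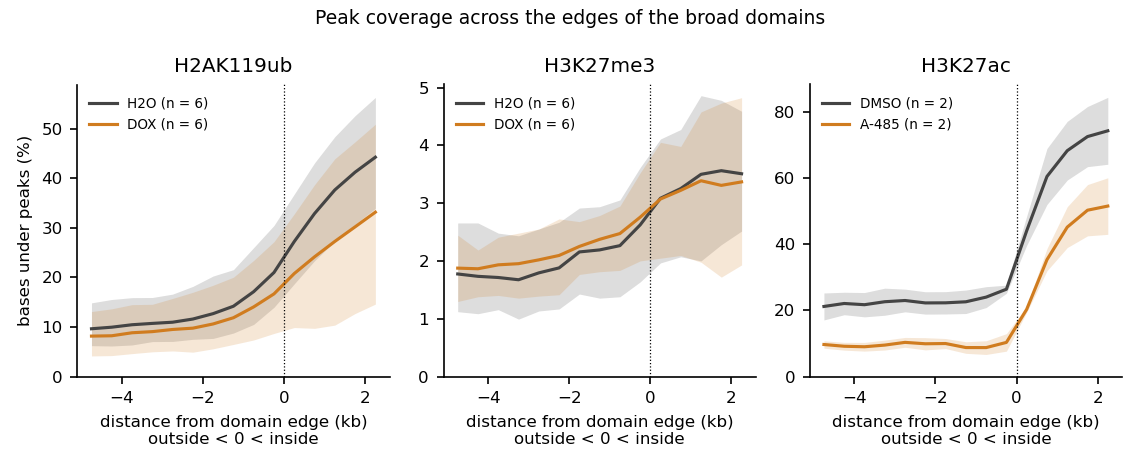
Peak coverage in steps of 500 bp (vertical axis, % of bases) against distance from the domain edge (horizontal axis, kb), averaged over both edges of the broad domains for H2AK119ub, H3K27me3 and H3K27ac. Lines are means over libraries and bands run from the lowest to the highest library. H2AK119ub climbs gradually from 9.66% to 44.2% in H2O, H3K27ac steps up at the edge and H3K27me3 stays under 5%.

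H3K27me3 was sparse in broad domains. The share under H3K27me3 peaks was 3.399% ± 0.975 (SD, n = 6), with single libraries between 2.23% and 4.56%, against 19.1% ± 5.77 in short runs. The difference of -15.7 ± 4.80 points was negative in 6 of 6 libraries (exact two-sided sign-flip permutation test, p = 0.0312). Against runs of 2 to 5 kb it was -1.67 points. SUZ12 in parental DMSO cells covered 3.90% of broad domains and 22.0% of short runs in its single library.

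In 14 domains, written below as carrying, peaks of H3K27me3 covered at least 50% of bases in each of the 6 H2O libraries, 790 had under 10% in each (free), and 50 lay between (mixed). Carrying domains were covered by H2AK119ub at 93.5% ± 4.88 and free domains at 34.7% ± 10.4 (SD, n = 6). The difference of 58.8 ± 5.70 points was positive in 6 of 6 libraries (exact two-sided sign-flip permutation test, p = 0.0312), and mixed domains had 78.8%. Carrying domains were also richer in CG, with a median of 65.0 per kb against 33.9 in free ones. The part of CG density in the difference of H2AK119ub was not tested. SUZ12 covered 80.6% of carrying and 0.411% of free domains. The carrying domains with genes were at GDNF, a neurotrophic ligand, SP9 and ZNF536, zinc finger factors, NKX2-1, PDGFRA, a receptor of platelet-derived growth factor, ADCYAP1, the precursor of the neuropeptide PACAP, LHX1, a LIM homeobox factor, BCL11A, a zinc finger repressor, and FGF9, a growth factor. The other 5 held no protein-coding TSS. H2AK119ub covered the GDNF, SP9, PDGFRA, ADCYAP1 and LHX1 domains completely in all 6 H2O libraries.

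H3K27ac separated the carrying domains into a pair of groups in 3 of the 4 H3K27ac libraries, but not in DMSO replicate 4. In DMSO replicate 2 it covered 0 to 15.4% of 10 of them, among them GDNF, SP9 and PDGFRA at 0%, and 90.3 to 97.6% of the other 4. Those 4 lie within 36.1 to 36.5 Mb of chromosome 14, NKX2-1 among them, and SUZ12 covered 0% of 2 of these 4 and 82.3% and 95.7% of the others. In DMSO replicate 4, whose input goes against its label, the 10 had 46.2 to 96.0%. The 4 on chromosome 14 had 0 to 88.9% there, so the groups overlapped. With A-485 the 10 had 0% in replicate 2 and 0 to 31.1% in replicate 4, so they were low in 3 of the 4 H3K27ac libraries and high in DMSO replicate 4 alone. The 4 had 66.1 to 94.2% and 63.3 to 98.4% with A-485 in replicates 2 and 4. The 4 on chromosome 14 also had raised input. In each of the 6 H2O H3K4me3 lists 25 domains (2.93%) had at least 2 times the median input reads per kb of all domains, a limit chosen after the values were seen. Of these, 13 lay on chromosome 14 between 31.0 and 36.5 Mb, 8 on chromosome 5 and 4 on chromosome 19. Input was 2.97 times the median at NKX2-1, 4.58 at NFKBIA and 4.86 at SRP54. Without these 25 domains the difference between carrying and free domains was 62.8 points.

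**Figure D3:**
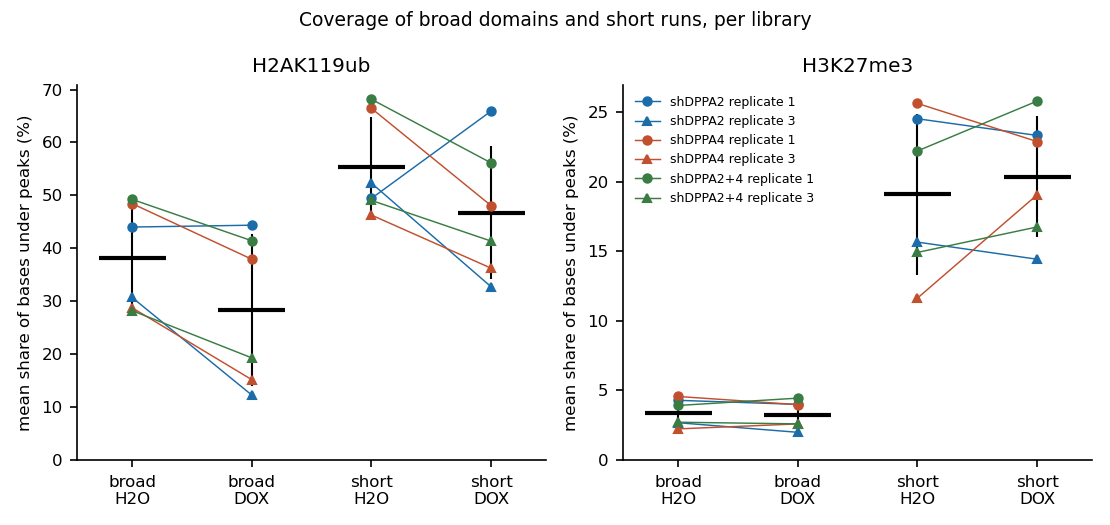
Mean share of bases under H2AK119ub (left) and H3K27me3 (right) peaks (vertical axes, %) in broad domains and short runs. Points are the 12 hairpin libraries of each mark, lines join H2O and DOX of a line and replicate, and black bars are means with SD. Broad domains sit below short runs for both marks in H2O (38.2% and 55.3% for H2AK119ub, 3.399% and 19.1% for H3K27me3), and the 3 replicate 3 libraries with DOX are lowest for H2AK119ub in broad domains.

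H3K4me3 over the domains stayed in place with DOX. Since the H2O libraries chose the members, its values are a description. Of the 854 domains, 768 (89.9%) were covered over at least 95% of their bases in all 6 DOX libraries, and the lowest share in any DOX library was 80.4%. The H3K4me3 level is peak reads per kb, scaled to each library's peak reads in the shared runs of at least 500 bp. Its median log2 ratio, DOX over H2O, was -0.03, with a range from -0.49 to 0.28. In 6 domains all 6 DOX libraries were below all 6 H2O libraries, against 0.371% of all runs of at least 500 bp, and in 2 they were above, against 0.168%. At NR2F1 the level was 29.6 ± 1.01 in H2O and 29.9 ± 0.658 with DOX (SD, n = 6).

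H2AK119ub coverage of broad domains was lower with DOX in 5 of 6 pairs, but the difference did not pass the test. The share with DOX was 44.4% and 12.3% in shDPPA2 replicates 1 and 3, 37.9% and 15.2% in shDPPA4, and 41.4% and 19.3% in shDPPA2+4. The values of replicate 3 were below all H2O libraries, and those of replicate 1 lay inside the H2O range. The mean was 28.4% ± 14.4 with DOX and 38.2% ± 10.1 in H2O, a difference of -9.82 ± 6.28 points (exact two-sided sign-flip permutation test over 6 pairs, p = 0.0625). By pair it was 0.35 and -18.4 points in shDPPA2, -10.5 and -13.6 in shDPPA4, and -7.82 and -8.92 in shDPPA2+4. It averaged -5.99 points within replicate 1 and -13.6 within replicate 3, whose DOX libraries stand apart in peak number, and the part of that in the result was not tested. Over domains of at least 8 kb the difference was -10.8 points and below 0 in every pair (exact permutation p = 0.0312). Short runs had a difference of -8.54 ± 13.1 points, and broad minus short was -1.28 ± 8.32 points (exact permutation p = 0.781), so no difference between the classes was detectable on this scale.

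Some domains had this direction in every pair. Of the 854, 68 (7.96%) had a lower H2AK119ub share with DOX in all 6 pairs, against 1.86% of all runs of at least 500 bp. In 0 it was higher in all 6, against 0.00863% of runs. Only regions with a peak in all 6 H2O libraries can be lower in every pair, so the 68 fell among 503 such domains. Of 9183 such runs, 432 (4.70%) were lower. Among the 3251 short runs, 32 (0.984%) were lower in every pair, and 1848 had a peak in all 6 H2O libraries. Whether these counts depend on region length was not tested. ZEB2, HOXC9, TGIF1, SMAD6, ARID1A and KDM6B were among the 68. In no domain were all DOX libraries below all H2O libraries. ZEB2 had a lowest, median and highest share of 31.0%, 52.2% and 79.3% in H2O and 4.89%, 25.5% and 75.0% with DOX. KDM6B, an H3K27 demethylase, had 49.6%, 64.7% and 86.6% in H2O and 21.9%, 42.4% and 68.1% with DOX. JUN is not among the 68, being lower in 5 pairs and higher in 1. It had 56.4%, 80.9% and 92.7% in H2O against 0%, 41.8% and 92.7% with DOX. In all of these the treatments overlapped, with shDPPA2 replicate 1 in DOX inside the H2O range at 75.0%, 67.2% and 92.7%. The largest mean differences were at CFL2 (-45.8 points), ANXA2R (-41.5), NFKBIA and USP43 (-33.3 each), of which CFL2, ANXA2R and NFKBIA have raised input. Those in the other direction were at COL5A2 (11.3 points), NOP58 (8.33), ZFP30 (7.80) and YME1L1 with MASTL (7.00), from H2O medians of 0%. Carrying domains had a median difference of -0.65 points, and GDNF, SP9 and ADCYAP1 remained fully covered in every DOX library.

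**Figure D4:**
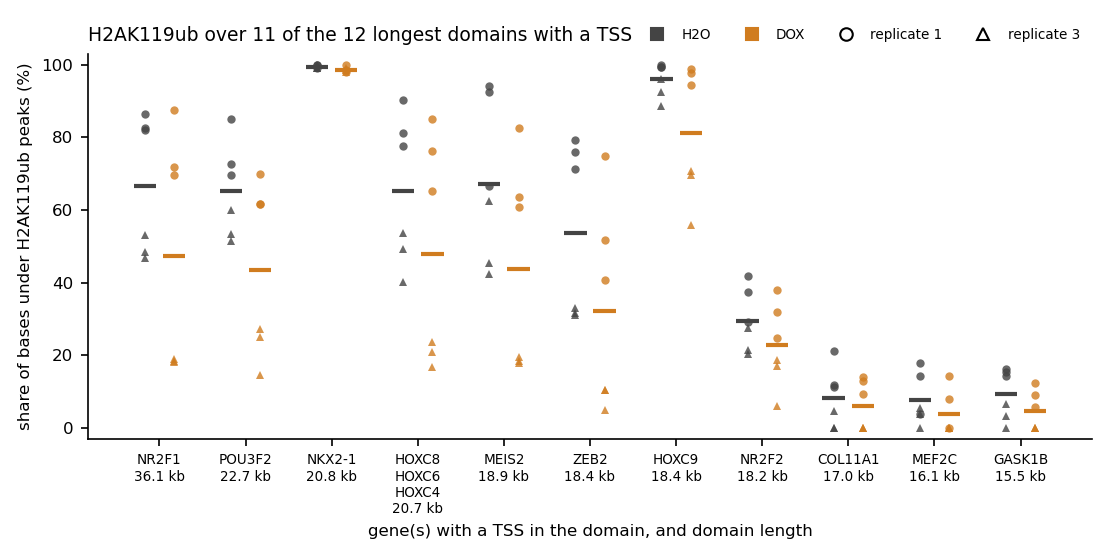
Share of bases under H2AK119ub peaks (vertical axis, %) for 11 of the 12 longest broad domains with a TSS (horizontal axis, with length), in 6 H2O libraries (gray) and 6 DOX libraries (orange). Circles are replicate 1, triangles replicate 3, and bars are means. NKX2-1 stays near 100% in both treatments, COL11A1, MEF2C and GASK1B stay under 25%, and for the other 7 the replicate 3 libraries with DOX lie below all other libraries.

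Read counts were then compared over all runs of at least 500 bp with a peak in every library. For H2AK119ub 265 domains (31.0%) could be tested among 5609 runs, and these are the more highly covered ones. With edgeR's quasi-likelihood test and Benjamini-Hochberg adjustment, 0 domains and 0% of runs passed an adjusted p of 0.05 with a log2 change of 0.5. At an unadjusted p of 0.05, 104 domains (39.2%) were lower and 2 higher with DOX, against 7.72% and 6.63% of runs. The domains had a median of 210 reads per library. Runs of 0.5 to 1 kb, 1 to 2 kb and 2 to 5 kb had 26.2, 51.1 and 90.3. The shares of small p are therefore not compared at equal counts, here or in the other read comparisons below. The log2 fold change was below 0 in 230 domains (86.8%), against 50.8% of runs, with a median of -0.25, against -0.0048 over all runs. It is relative, since scaling centers the runs tested. Runs of 0.5 to 1 kb had a median of 0.23, those of 1 to 2 kb of 0.08 and those of 2 to 5 kb of -0.07. By pair the median of the domains was -0.06 and -0.58 in shDPPA2 replicates 1 and 3, -0.12 and -0.41 in shDPPA4, and -0.14 and -0.26 in shDPPA2+4, so replicate 3 was lower in each line. Free domains had a median of -0.29 (209 tested), mixed ones of -0.13 (43) and carrying ones of 0.15 (13). Lines had medians of -0.30, -0.28 and -0.19 for shDPPA2, shDPPA4 and shDPPA2+4, and no run differed between lines at an adjusted p of 0.05.

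The smallest p-values were at KDM6B, MARCKS, a substrate of protein kinase C, and NR2F1. As RPM, reads scaled to the total of the runs tested times its TMM factor, KDM6B (chr17:7833601-7845500) had 908 and 671 for H2AK119ub in H2O and 756 and 361 with DOX in shDPPA2 replicates 1 and 3, 1080 and 739 against 797 and 299 in shDPPA4, and 968 and 504 against 742 and 329 in shDPPA2+4. DOX was below H2O in every pair, and the groups overlapped because of the gap between replicates. The log2 fold change was -0.63 (SE 0.128, edgeR adjusted p = 0.305), with -0.41 (SE 0.0906) at MARCKS and -0.52 (SE 0.123) at NR2F1, where the adjusted p was also 0.305. In the other direction stood a carrying domain without a gene on chromosome 14 (log2 fold change 0.44), ANKRD33B (0.18) and ZNF536 (0.27), with edgeR adjusted p of 0.329 to 0.348.

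The tool mattered here. DESeq2 with the same block called 17 domains lower with DOX and 0 higher (0.303% and 0% of runs), and the 17 were all of the runs it called. They included ZEB2 (log2 fold change -0.98), KDM6B (-0.64), DLX2 (-0.61), NR2F1 (-0.52), POU3F2 (-0.56), HOXC8 with HOXC6 and HOXC4 (-0.52), PCGF2, a PRC1 subunit, with PSMB3 (-0.58), SETD1B (-0.68), SPRY4, a feedback inhibitor of receptor tyrosine kinases (-0.66), and CDK6 (-0.70). The edgeR calls also changed without shDPPA2 DOX replicate 1, the library whose share did not differ from H2O. That fit leaves a single library in its group, so no count is given.

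H3K27me3 over the domains did not differ detectably with DOX. The share was 3.27% ± 0.996 with DOX and 3.399% ± 0.975 in H2O, a difference of -0.13 ± 0.494 points (exact two-sided sign-flip permutation test over 6 pairs, p = 0.531). Of the domains 31 (3.63%) could be tested for reads among 1449 runs. None was called by edgeR, and 0% of runs were, 8 were lower and 4 higher at an unadjusted p of 0.05 (4.76% and 3.38% of runs, 8.14% together), and DESeq2 called 1 domain higher (0.138% of runs), which has no gene, lies on chromosome 14 and has raised input. The log2 fold change was below 0 in 18 of the 31 (58.1%), against 51.9% of runs. The smallest p-values were at TBR1 (log2 fold change -0.61, SE 0.187), SP9 (-0.75, SE 0.246) and BCL11A (-0.49, SE 0.172), each with an edgeR adjusted p of 0.567.

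In parental cells H3K27ac covered less of the broad domains with A-485 in both replicates as labelled. The share was 74.7% in DMSO and 48.5% with A-485 in replicate 2, and 57.2% and 36.8% in replicate 4, whose inputs go against the labels. Whether inputs or labels were exchanged was not tested, and with exchanged labels replicate 4 would run from 36.8% in DMSO to 57.2% with A-485. Short runs went from 40.7% to 15.6% and from 73.6% to 13.2%. With 2 libraries against 2 no exact test of these means can reach 0.05. Of the 816 domains with a peak in both DMSO libraries, 626 (76.7%) had a lower share with A-485 in both replicates, against 84% of all such runs and 92.5% of short ones, and 5 had a higher one in both, against 0.214% of runs. In replicate 2 alone, 823 of 837 domains with a DMSO peak (98.3%) were lower, against 93.8% of runs and 95.7% of short ones, so domains were below short runs only in the count over both replicates. With the labels of replicate 4 exchanged, 178 of 759 domains (23.5%) were lower in both, against 17.4% of runs and 4.88% of short ones. Among the longest domains, NKX2-1 had 97.6% in DMSO and 94.2% with A-485 in replicate 2, but 88.9% and 98.1% in replicate 4. HOXC8 with HOXC6 and HOXC4 had 100% and 93.7% in replicate 2 and 93.2% and 79.7% in replicate 4, and NR2F2 had 79.1% and 43.96%, then 51.1% and 2.75%. VIM, an intermediate filament of mesenchymal cells in a domain of 9.2 kb, had 97.8% and 42.4% in replicate 2 and 43.5% and 21.7% in replicate 4. FZD8, a Wnt receptor, went from 60.5% to 6.58% in replicate 2 and from 47.4% to 9.21% in replicate 4. EP300, the gene of p300, had 38.98% and 33.9% in replicate 2 and 44.1% and 33.9% in replicate 4.

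**Figure D5:**
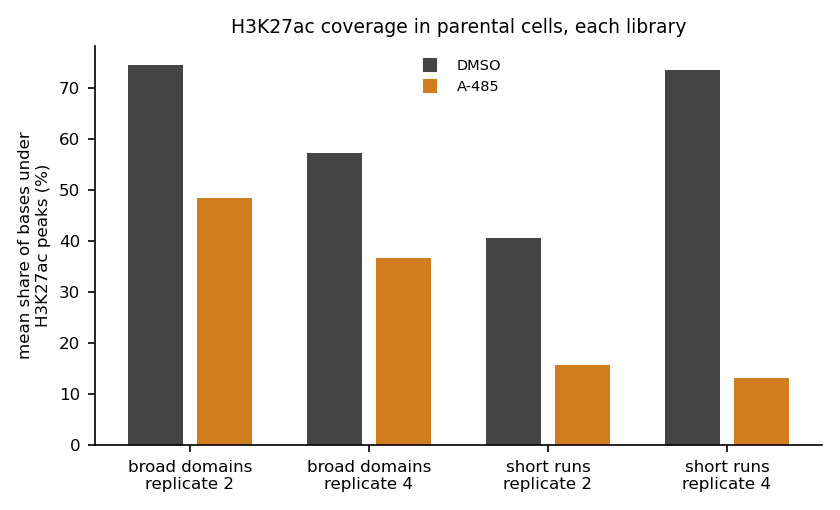
Mean share of bases under H3K27ac peaks (vertical axis, %) in broad domains and short runs, 1 bar per parental library, DMSO in gray and A-485 in orange. As labelled, A-485 is below DMSO in each pair of bars, and replicate 4 in DMSO is the only DMSO library in which short runs exceed broad domains (73.6% and 57.2%).

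Relative to other runs, H3K27ac reads in the domains had no stable direction with A-485. Of the domains 739 (86.5%) could be tested among 8957 runs, and edgeR called 0 domains and 0% of runs. At an unadjusted p of 0.05, 30 domains (4.06%) were lower and 108 (14.6%) higher with A-485, against 2.34% and 5.78% of runs (8.13% together). The log2 fold change was below 0 in 315 domains (42.6%), against 52.3% of runs, and the median log2 fold change was 0.09 (0.20 and 0.02 by replicate). It was -0.20 without A-485 replicate 2, -0.02 without DMSO replicate 4, 0.34 without A-485 replicate 4 and 0.30 without DMSO replicate 2. With library totals alone it was -0.0029, and 19 domains were called. The share of all runs called in that setting is not given, so the count is not read as particular to the domains. The lowest p-values below 0 were at TUBB2B with PSMG4 (log2 fold change -1.61, SE 0.338), FZD8 (-1.69, SE 0.412) and MAFA (-1.78, SE 0.437), each with an edgeR adjusted p of 0.351. TUBB2B, a neural beta-tubulin, had 303 and 214 RPM of H3K27ac in DMSO and 126 and 51.4 with A-485, in replicates 2 and 4. Those above 0 were 3 domains without a gene on chromosome 21, near 16.3 to 16.5 Mb (log2 fold change 1.69 to 1.77). DESeq2 called 12 domains higher and 0 lower (0.29% and 0% of runs), among them COL5A2 (1.98) and COL3A1 (1.92), fibrillar collagen genes, and 10 domains without a gene, on chromosomes 2, 5, 14 and 21. Of the 12, 3 on chromosome 5 and 1 on chromosome 14 have raised input in each of the 6 H2O H3K4me3 lists. By the mean over these lists, input was also 2.12 times the median of all domains at COL5A2 and 2.00 times at COL3A1. The lowest of the 12 had 1.31 times the median.

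H2AK119ub in parental cells covered 16.7% of broad domains in DMSO and 12.5% with A-485 in replicate 3, and 11.3% and 9.30% in replicate 4. Both DMSO libraries were below every H2O library of the hairpin lines, and their peaks were called separately. Of 284 domains with a peak in both DMSO libraries, 150 (52.8%) had a lower share with A-485 in both replicates, against 45% of such runs, and 9 had a higher one, against 4.8%. Carrying domains had 89.8% and 81.8% in replicate 3 and 71.0% and 62.2% in replicate 4. For reads, 216 domains could be tested among 2706 runs, with 0 calls by edgeR, 0% of runs, 0 calls by DESeq2, and 12 lower and 3 higher at an unadjusted p of 0.05 (1.96% and 0.739% of runs, 2.7% together). The log2 fold change was below 0 in 55.1% of the 216, against 49.8% of runs. NR2F2 had a log2 fold change of -1.73 (SE 0.401), SPRY2, a feedback inhibitor of receptor tyrosine kinases, one of -1.25 (SE 0.377), JUN one of 1.01 (SE 0.365) and KDM5B, an H3K4 demethylase, one of 1.76 (SE 0.4697), each with an edgeR adjusted p of 0.997. H3K27me3 covered 3.04%, 3.53% and 1.38% of the domains in DMSO replicates 2, 3 and 4 and 2.12%, 2.65% and 2.45% with A-485, lower in replicates 2 and 3 and higher in replicate 4, whose DMSO library stands apart. Of 29 domains with a peak in every DMSO library, 5 had a lower share with A-485 in 3 of 3 replicates, against 7.25% of such runs, and 0 a higher one, against 0.853%. Of 27 domains tested among 598 runs, edgeR called 0 (0% of runs), 4 were lower and 0 higher at an unadjusted p of 0.05 (2.68% and 0.167% of runs, 2.84% together), 18 of the 27 were below 0 against 50.7% of runs, and DESeq2 called 1 lower (0.167% of runs), a carrying domain without a gene on chromosome 14. HOXD11 had a log2 fold change of -1.36 (SE 0.380, edgeR adjusted p = 0.865).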

How the data were processed

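The study's ChIP-Rx-seq of NCI-H661 cells was used as 51 deposited peak lists, 1 per library. Inputs (8 samples) entered only through the input columns. Members and gene lists were chosen with earlier results of these data known. Tools named in the submitters' processing notes, with hg38 as build, are BWA 0.7.13 for alignment, Trim Galore 0.6.6, deepTools 3.5.0, Picard 2.6.0 and SAMtools 1.9. The authors called peaks per library with EPIC2 on a grid of 100 bp, although the study names MACS2 for SUZ12. The deposited ChIP and input columns are raw read counts per peak. The deposited p-value and FDR columns and the log2 fold change over input are the authors' own and served only to filter peaks (log2 fold above 1) in an alternative. The deposited score column was not used. Blacklisted regions were not removed here. Mouse reference reads were not used, so global changes are not seen.

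A domain's share is its percentage of bases under a library's peaks. Replicates carry only a number in the labels, so the tests see the variation among these libraries, part of which may be technical. For shares, two-sided exact sign-flip permutation tests were run over 6 pairs of line and replicate. For reads, the counts of each peak were apportioned to runs by overlap and rounded, runs with a peak in every library and a mean of at least 10 reads were kept, and edgeR 4.0.16 (quasi-likelihood, TMM, replicate number as a block) was used with Benjamini-Hochberg adjustment over all runs and calls at an adjusted p of 0.05 and 0.5 log2. Same-numbered libraries deviated together (correlations 0.167 to 0.429), so numbers pair the samples. DESeq2 1.42.0 was an alternative. Scripts were tested on simulated counts, in which 4-fold changes were recovered in 99.0% of runs for H2AK119ub with DOX but in 73.0% for H3K27ac and 40.4% for H2AK119ub with A-485. For 2-fold changes the matching values were 83%, 16% and 2%, so with A-485 most changes of that size would be missed for these 2 marks. Other alternatives were the length limit, short-run definition, stricter peaks, scaling, no filter, and leaving out lines, replicates and libraries. Named genes are the 12 longest domains, the 4 longest of each list, the extremes of H2AK119ub, H3K27me3 and the DOX difference, and the 3 smallest p per direction. Other named genes were chosen after their values were seen. Some genes that fall under this rule are not reported here.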

Additional observations from a re-analysis of the deposited data

Results flagged for a closer look

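Each group of 6 pairs was examined for a value far from the others, in 12 groups, and chance flags about 1 in 20 such groups. For H2AK119ub in broad domains against short runs in H2O, shDPPA2 replicate 1 had a difference of -5.41 percentage points, while the other 5 pairs lay between -21.6 and -17.5. This library had 44.02% in broad domains, within the range of the others, and 49.4% in short runs. For H3K27me3 reads with DOX, the median log2 difference of the tested domains was -0.39 in shDPPA2 replicate 3 and between -0.15 and -0.02 in the other 5 pairs. SUZ12, which entered no comparison, covered 80.6% of the bases of H3K27me3-carrying domains in its single DMSO library, against 0.411% of free domains.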

How the results depend on the processing

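The 3 comparisons of shares within H2O libraries kept their direction under all alternatives. The difference of H2AK119ub between broad domains and short runs was -11.2 points over the central 1 kb (exact permutation p = 0.0625) and otherwise between -20.2 and -9.22. For DOX minus H2O, H2AK119ub reached p = 0.0312 (exact permutation test) at -10.8 points with domains of at least 8 kb. Broad minus short was 0.94 points against runs of 2 to 5 kb, and H3K27me3 was 0.14 points at 8 kb. Both had no call in any setting. Leaving out a replicate or a line leaves 3 or 4 pairs, for which the exact permutation test cannot go below p = 0.25 or 0.125, so these give values only. They ranged from -20.0 to -14.1 and from -19.9 to -11.5 points for H2AK119ub and H3K27me3 in broad against short, from 53.9 to 63.7 for carrying against free, from -13.6 to -5.99 for H2AK119ub with DOX, from -3.003 to 1.83 for broad minus short and from -0.30 to 0.0454 for H3K27me3 with DOX. The values 1.83 and 0.0454 came without line shDPPA2.

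For reads, edgeR called 0 domains in all 5 comparisons. DESeq2 called 17 (H2AK119ub, DOX), 1 (H3K27me3, DOX), 12 (H3K27ac, A-485), 0 (H2AK119ub, A-485) and 1 (H3K27me3, A-485). Library totals alone gave 19 for H3K27ac. Leaving out single libraries and, for H3K27me3 with A-485, also replicates gave 0 to 43, 0 to 1, 0 to 0, 0 to 0 and 0 to 1 domains, with 43 (H2AK119ub) and 1 (H3K27me3) without shDPPA2 DOX replicate 1, and 1 without replicate 3 for H3K27me3 with A-485. Fits without the replicate block called 0, so the pairing changed no call. Leaving out single libraries and the domains of high input were chosen after seeing the data. Without the latter the DOX difference of H2AK119ub was -9.68 points and no call changed. The median log2 change of the H2AK119ub domains was below 0 in every setting (-0.79 to -0.11). That of H3K27ac with A-485 ran from -0.20 to 0.34, on both sides of 0. Domains with a lower H3K27ac share numbered 626, but 823 in replicate 2 alone and 178 with the labels of replicate 4 exchanged, both added after seeing the data. The cause of these differences was not tested. In simulated counts, 4-fold changes were recovered least for H2AK119ub with A-485 (40.4%), where 2-fold changes were recovered in 2%.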
